A study of Mus musculus with 4 samples.

Results

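The nuclei described here are cortical excitatory neurons that held RNA of both Il1rapl2 and Deptor, a combination used to mark a class of layer 5 neurons. A nucleus was counted as a member when it had at least 1 UMI (unique molecular identifier, each counted as 1 RNA molecule) of the vesicular glutamate transporter gene Slc17a7, at least 3 UMIs of Il1rapl2 and at least 2 of Deptor, and no UMI of the inhibitory genes Gad1 and Gad2 or of Rspo1, Syt6 and Otof, which mark other layers. The members were thus chosen by the UMIs of these 8 genes in the same nuclei. Nuclei with over 7000 genes or over 1% mitochondrial UMIs had been dropped, and of the 30515 left, 14291 were excitatory (Slc17a7 present, Gad1 and Gad2 absent) and 841 were members. Single-nucleus RNA-seq had been run on cortex of mice in which floxed GCLC, the catalytic subunit gene of glutamate-cysteine ligase, was deleted by CaMKII-Cre. Cre under this promoter acts in excitatory neurons of the forebrain, so the deletion is meant for the cells described here, and every mouse carried it. Of the 4 mice, each with its own library, those of 3M-1 and 3M-2 were 3 months old and those of 6M-1 and 6M-2 were 6 months old, and the labels give batch 1 to the first and batch 2 to the second library of each age. No wild-type library was analysed here, so a change caused by the loss of glutathione synthesis cannot be told apart from the usual state of these neurons. The libraries contributed 197, 168, 211 and 265 members with 2945606, 2128819, 2918548 and 3682975 UMIs. Here and in what follows, values of the 4 libraries stand in the order 3M-1, then 3M-2, 6M-1 and finally 6M-2.

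Layer 5 of the cortex holds several kinds of pyramidal neurons. Intratelencephalic neurons send axons to other cortical areas and the striatum, extratelencephalic neurons project to the brainstem and spinal cord, and near-projecting neurons keep most of their axon close by. Il1rapl2 is an X-linked member of the interleukin-1 receptor accessory protein-like family, whose better known member Il1rapl1 organizes excitatory synapses through receptor tyrosine phosphatases. Deptor is a protein that binds and inhibits mTOR, the kinase that couples nutrients and growth factors to protein synthesis. Hs3st2 adds 3-O-sulfate to heparan sulfate, the sugar chain of many cell-surface and matrix proteins, and Ccdc80 encodes a secreted matrix protein.

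Members were deeply sequenced nuclei. They held 3090 to 38756 UMIs with a median of 12854, and a median of 4092 detected genes. Library medians lay between 11878.5 and 14088 UMIs, against 7928 to 11562 UMIs in the excitatory nuclei that were not members. Since the thresholds count UMIs, deep nuclei pass them more easily. No barcode of a member was shared between any pair of libraries. Scrublet called 3, 5, 22 and 23 members doublets, which was 1.52%, 2.98%, 10.4% and 8.68% of the members. Of all nuclei kept it called 3.81%, 7.07%, 8.73% and 8.92%. Called doublets were thus more frequent in both 6-month libraries, among members and among all nuclei. These nuclei were kept, and leaving them out was one of the alternative settings.

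The targeted gene was looked at first. Gclc stood at 41.4, 29.1, 33.6 and 36.7 CPM (UMIs of a gene scaled to the total UMIs of the class in that library) in members, and the ages overlapped. Its mean of 35.2 ± 5.17 CPM (SD, n = 4 mice) compared with 35.5 CPM in layer 2/3, 29.2 in layer 4 and 40.7 in layer 6 nuclei, a log2 difference of 0.05 ± 0.086 (SE) with an adjusted p of 0.756 (edgeR). Reads were counted at the 3′ end and the deleted exons are not given in the sources used here, so these counts do not check the deletion. Of 5 listed sex-linked genes, Xist was at 1578 to 1817 CPM in members of the 4 libraries, while 2, Eif2s3y and Kdm5d, had no UMI in them. The others had at least 1 UMI, and all 5 summed to 1778, 1578, 1759 and 1817 CPM.

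The genes that chose the members are described without a test. Il1rapl2 (chrX:137570608-138846946, plus strand, GRCm38) ranged from 3 to 202 UMIs per member with a median of 24, far from the threshold for most nuclei. Its summed level was 2462, 2474, 2139 and 2309 CPM, against means of 216 CPM in layer 2/3, 180 in layer 4 and 83.1 in layer 6 nuclei. Deptor (chr15:55112317-55259271, plus strand) was sparser and ranged from 2 to 22 UMIs with a median of 3, so that many members sat at the threshold. Deptor stood at 266, 262, 261 and 270 CPM in the libraries, against 10.6, 18.2 and 25.7 CPM in the means of layers 2/3, 4 and 6.

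Hs3st2 and Ccdc80, which were named together with the gate genes, behaved differently from each other. Hs3st2 (chr7:121391859-121501770, plus strand) was at 210, 269, 213 and 228 CPM in the members, with a mean of 230 ± 27.3 CPM (SD, n = 4 mice), but layer 6 nuclei held 218 CPM. It therefore separated members from layer 2/3 (31.4 CPM) and layer 4 (52.4 CPM) and not from layer 6. At least 1 Hs3st2 UMI was found in 73.5% of members and 70.6% of layer 6 nuclei, with 15.6% in layer 2/3 and 1.66% in oligodendrocyte nuclei, whose library medians were only 1888 to 2993 UMIs. Ccdc80 (chr16:45093402-45128077, plus strand) was low but stood higher in members than in the other layers. It was at 21.7, 14.6, 14.4 and 14.4 CPM against 2.27, 4.08 and 3.27 CPM in layers 2/3, 4 and 6, and 16.9% of members had a UMI of it.

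Nuclei on either side of the thresholds showed how gradual the boundary was. The 339 members with exactly 2 Deptor UMIs had 203 CPM of Hs3st2 and 141 CPM of Etv1, and the 618 nuclei left out for having 1 Deptor UMI had 163 and 109 CPM. Ccdc80 was at 14.3 CPM in the former and 10.7 CPM in the latter, but at 6.33 and 11.8 CPM in 6M-2. The other threshold was thinly filled, with 21 members at 3 Il1rapl2 UMIs and 22 nuclei left out at 2. Hs3st2 stood at 39.4, 36.4, 0 and 89.0 CPM in the former and at 52.4, 96.4, 165 and 352 CPM in the latter, where 20 of the 36 Hs3st2 UMIs came from 5 nuclei of 6M-2. Etv1 had 26 UMIs in the former and 5 in the latter. A further 84 nuclei passed both thresholds but had a UMI of Rspo1, Syt6 or Otof only, 80 had a UMI of Gad1 or Gad2 only, and 53 lacked only Slc17a7.

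To ask how members differ from neighbouring classes, they were set beside excitatory nuclei with a UMI of Otof (called layer 2/3 here, 2016 nuclei), of Rspo1 (layer 4, 850 nuclei) or of Syt6 (layer 6, 1323 nuclei), each without UMIs of the genes of the other two and outside the gate. The UMIs of each class were added up within a mouse, and edgeR was fitted over the 16 sums with the mouse as a block. Of 13922 genes tested, 1485 (10.7%) were higher in members than in the mean of the 3 classes and 1067 (7.66%) were lower at an adjusted p of 0.05. A stricter rule, higher than each of the 3 classes by its own test, held for 249 genes (1.79%), and lower than each for 123 (0.883%). These totals include 8 genes of the gate or named with it, whose outcome the choice of nuclei could fix, of which 4 are among the 1485 and 3 among the 249. Without them 1481 of 13914 genes (10.6%) were higher and 1067 (7.67%) lower. Taken singly, 2298 genes (16.5%) were higher and 2217 (15.9%) lower than in layer 2/3, 1173 (8.43%) and 1147 (8.24%) than in layer 4, and 1751 (12.6%) and 1453 (10.4%) than in layer 6. Against all other excitatory nuclei in place of the 3 classes, 1323 genes were higher and 1607 lower, so the balance of the directions turned. The p-values measure how repeatable a difference was over the 4 mice with this gate. Since the gate was drawn on expression in these same nuclei, they are no independent evidence that the nuclei form a class.

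The nuclei were first checked against layer markers, and the counts of each list stand beside the 10.7% higher and 7.66% lower of all genes. Of the 10 listed genes of layer 5 intratelencephalic neurons, 8 were higher in members than in the mean of the 3 classes, 0 were lower, and the median log2 difference was 1.44, beside −0.00 over all genes tested. With called doublets left out, 7 of 9 tested were higher and the median was 1.14. One of the 8, Fezf2, is also a selector gene of extratelencephalic neurons. Etv1 (chr12:38779380-38870484, plus strand), a transcription factor used as a layer 5 marker, stood at 124, 178, 172 and 115 CPM. Means in layers 2/3, 4 and 6 were 47.0, 40.0 and 24.0 CPM, and no library of those classes reached the lowest member library. The log2 difference was 2.08 ± 0.147 (SE, adjusted p = 1.04e-09, edgeR), with Etv1 higher than each class in 4 of 4 mice.

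Other genes of this list were shared with a neighbouring layer. Rorb, a nuclear receptor gene best known from layer 4, had a mean of 310 CPM in members and 609 CPM in layer 4, but 43.9 and 22.5 CPM in layers 2/3 and 6. Fezf2, best known for specifying neurons that project out of the telencephalon, was at 20.6 CPM in members against 32.6 CPM in layer 6, and Tcerg1l was at 13.5 against 16.5 CPM in layer 2/3. Hsd11b1 (13.9 CPM in members, 7.43 CPM in the next class, layer 4) and Batf3 (3.61 against 1.54 CPM in layer 2/3) also passed the test against the mean of the 3 classes, as did Tox2 and Pde1c. The 2 genes that did not pass were Kcnn2 (log2 difference −0.18, adjusted p = 0.205) and Parm1 (0.39, adjusted p = 0.179).

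Markers of the other layer 5 types were mixed. Among 9 tested extratelencephalic markers 2 were higher and 4 lower, beside 10.7% and 7.66% of all genes, with a median log2 difference of −0.92. Bcl11b, the transcription factor of corticospinal neurons, had a mean of 38.1 CPM in members, close to layer 4 (30.0 CPM) and below layer 2/3 (104 CPM) and layer 6 (227 CPM). Chst8, a sulfotransferase gene, was higher than in each class at 95.1, 73.8, 69.2 and 85.5 CPM (log2 difference 1.54 ± 0.118 SE, adjusted p = 3.67e-09), and Ldb2, a cofactor of LIM-domain factors, likewise (0.73 ± 0.057, adjusted p = 4.81e-09). Npr3, Crym and Bcl6 were lower than the mean of the classes. Of 6 near-projecting markers 3 were higher (Tshz2, Vwc2l and Ptprt) and 2 lower (Trhr and Lypd1), while Slc17a8 and Sla2 were too low to test.

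Superficial markers were lower than the mean of the classes. Of 8 layer 2/3 markers 7 were lower, among them Cux2 (38.5 CPM in members, 201, 296 and 19.1 CPM in layers 2/3, 4 and 6), Cux1, Calb1 and Stard8, and Adamts2 alone was higher. Their sum was 212 CPM in members, 770 in layer 2/3, 854 in layer 4 and 146 in layer 6, so members lay above layer 6, and 0 of the 8 were lower than in each class. Layer 4 markers went the other way for 5 of 6 genes, with Rora at 2244 CPM in members, 2057 CPM in layer 4, and 718 and 581 CPM in layers 2/3 and 6. Brinp3 was the layer 4 marker that was lower, at 446 against 1593 CPM in layer 4. The corticothalamic markers Foxp2 (26.5 against 524 CPM in layer 6), Tle4 (75.3 against 476 CPM) and Crym were lower than the mean of the classes, whereas Sulf2 and Garnl3 were higher. Of 4 tested markers of layer 6 intratelencephalic neurons 0 were higher and 1 lower (median −0.52), and of 4 of layer 6b 1 was higher and 2 lower (median −1.11). The layer 4 list thus stood nearly as high as the intratelencephalic list, with median log2 differences of 1.12 and 1.44, and slightly above it with called doublets left out, at 1.19 and 1.14. Summed over its genes, the intratelencephalic list was at 794 CPM in members, 331 in layer 2/3, 901 in layer 4 and 471 in layer 6, so layer 4 nuclei held more of it than members did. The layer 4 list summed to 3317 CPM in members and 4732 CPM in layer 4. Of the intratelencephalic genes Etv1 and Pde1c were higher in members than in each class, whereas 0 of the 6 layer 4 markers were.

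**Figure D1:**
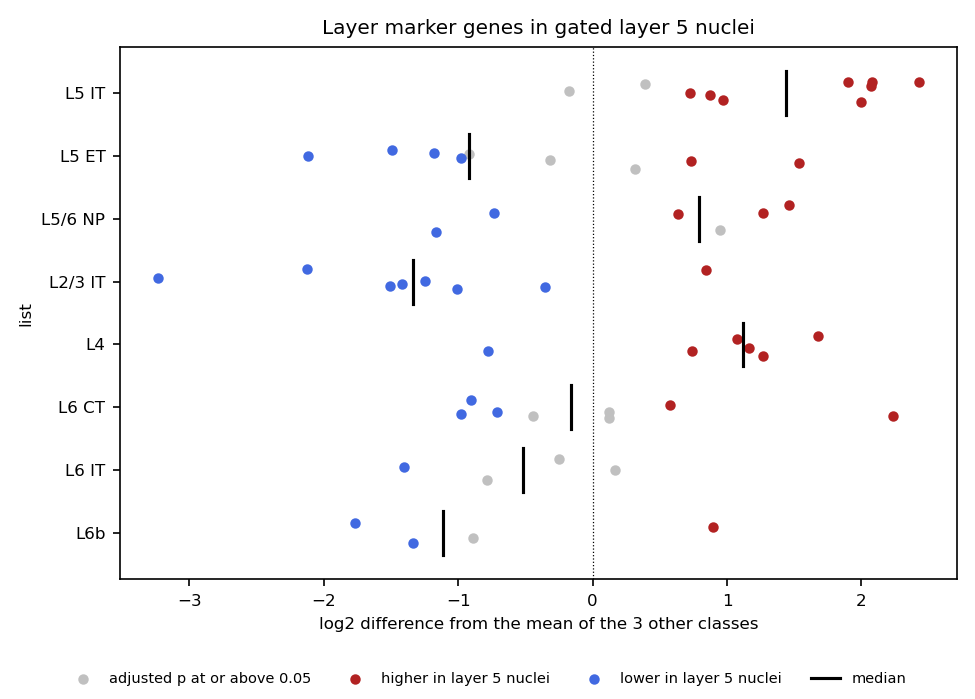
Log2 difference between members and the mean of the layer 2/3, 4 and 6 classes (horizontal axis) for the tested marker genes of 8 lists (vertical axis). Each point is 1 gene, red where higher and blue where lower at an adjusted p of 0.05 in edgeR and grey otherwise, and the bar is the median, which was 1.44 for layer 5 intratelencephalic markers and −1.33 for layer 2/3 markers.

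Members were not alike in Tshz2, a zinc finger gene that marks near-projecting neurons. No Tshz2 UMI was found in 555 members (66.0%), 1 to 4 UMIs in 99 (11.8%) and 5 or more in 187 (22.2%), up to 85 UMIs in 1 nucleus. The 187 nuclei came from every library, with 47, 35, 44 and 61. This division was made after the values had been seen, so the levels that follow carry no test.

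Nuclei with 5 or more Tshz2 UMIs held less Hs3st2, at 104, 111, 73.5 and 111 CPM, than nuclei without any, at 261, 313, 260 and 247 CPM. Rorb followed the same order in each library, with means of 159 ± 53.4 and 341 ± 53.3 CPM (SD, n = 4 mice). Il1rapl2 itself was at 1751 ± 162 CPM in the Tshz2-rich and 2478 ± 261 CPM in the Tshz2-free nuclei, while Deptor was at 252 and 270 CPM. Means of Etv1 (190 against 139 CPM), Vwc2l (138 against 55.8 CPM), Foxp2 (46.9 against 19.9 CPM) and Fezf2 (35.5 against 17.5 CPM) lay the other way. In 3M-1, however, Fezf2 was at 14.6 CPM in the Tshz2-rich and 17.6 CPM in the Tshz2-free nuclei. Slc17a8, another near-projecting marker, was close to 0 in both, at 0.314 and 0.160 CPM. The gate thus joined nuclei with Hs3st2 and Rorb to nuclei with Tshz2, and genes described next differed in how they divided. Ptprm was at 513 ± 95.3 CPM in the Tshz2-rich and 457 ± 19.7 CPM in the Tshz2-free nuclei, Sulf2 at 130 and 153 CPM, and Scube1 at 160 ± 38.6 and 309 ± 75.5 CPM (SD, n = 4 mice). Ptprm lay against its means in 3M-1, at 380.5 in the Tshz2-rich and 453.6 CPM in the Tshz2-free nuclei. Sulf2 did so narrowly in 6M-2, at 145.9 and 145.1 CPM.

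By a rule of size, 15 genes were taken as the highest in members among those higher than each class in all 4 mice. Ptprm (chr17:66666947-67354457, minus strand), a receptor tyrosine phosphatase that binds itself on neighbouring cells, led them. It was at 432, 479, 495 and 454 CPM in members, and the highest library of any other class was a layer 4 sum at 120 CPM. The log2 difference from the mean of the 3 classes was 4.05 ± 0.106 (SE, adjusted p = 1.6e-16, edgeR), and 79.4% of members had a Ptprm UMI, against 33.3% of layer 4 and 7.11% of layer 6 nuclei. Inhibitory nuclei held more, at 935 CPM, so the gene sets members apart among these excitatory classes and not among all nuclei. The long non-coding gene 1700016K05Rik, also among the 15, lies inside Ptprm on the opposite strand, and whether reads were counted by strand is not given in the sources used here, so the pair is uncertain as separate genes.

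Several of the 15 encode receptors and signalling proteins. Adgrg6, an adhesion G protein-coupled receptor best known from Schwann cells, was at 35.3, 29.1, 45.9 and 27.7 CPM in members, while all 12 sums of the other classes were at 8.24 CPM or below (log2 difference 3.23 ± 0.184 SE). Npsr1, the neuropeptide S receptor, varied widely among the mice at 44.1, 80.3, 21.9 and 67.9 CPM, and its lowest library still lay above the 16.1 CPM of the highest layer 2/3 sum (3.16 ± 0.337). In that library, 6M-1, all other excitatory nuclei together held more Npsr1 than members, at 26.1 CPM. Only 11.1% of members had an Npsr1 UMI.

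Foxo1, a transcription factor that insulin and Akt signalling keep out of the nucleus, was at 43.4, 49.8, 33.9 and 33.1 CPM, with means of 17.0 CPM in layer 2/3, 6.30 in layer 4 and 1.71 in layer 6 (log2 difference 2.84 ± 0.17 SE, adjusted p = 8.57e-11). Both 3-month libraries lay above both 6-month ones, an order that 15.7% of all genes tested for age had and that Scube1 and Pde1c shared. Foxo1 did not pass the age fit described below (adjusted p = 0.879 in edgeR, and 0.898 with the batch as a block). Outside these classes, oligodendrocyte nuclei held 42.7 CPM of Foxo1, above the members' mean of 40.1 CPM. Shc4, an adaptor of receptor tyrosine kinases, had a mean of 25.6 CPM against 3.15 to 5.33 CPM in the classes (2.61 ± 0.194). Pde1c, a calmodulin-dependent phosphodiesterase that was also on the layer 5 list, had 42.8 CPM against 6.35 to 9.01 CPM (2.43 ± 0.157), although oligodendrocyte nuclei held 180 CPM.

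Another set of the 15 acts at the cell surface or in the matrix. Sulf2, which removes 6-O-sulfate from heparan sulfate outside the cell, was nearly even over the libraries at 146, 136, 148 and 143 CPM, against means of 13.1, 42.0 and 56.6 CPM in layers 2/3, 4 and 6 (log2 difference 2.24 ± 0.116 SE). Scube1, a secreted and membrane-tethered glycoprotein, was at 320, 327, 201 and 246 CPM, above every sum of the other classes, of which the highest was 136 CPM (2.13 ± 0.0814). Bmper, a secreted regulator of bone morphogenetic proteins, had a mean of 64.2 CPM with 42.4 CPM in layer 4 (2.19 ± 0.105), and Ptgfrn, a partner of tetraspanins, had 40.2 CPM with 20.3 CPM in layer 4 (2.49 ± 0.126). Utrn, the homologue of dystrophin, had 151 CPM against 66.8 CPM in layer 4 (2.15 ± 0.101). The remaining 3 were Galntl6, a member of the O-glycosylation enzyme family (1871 against 820 CPM in layer 4), Prrg1 (39.3 against 22.9 CPM in layer 2/3) and BC006965 (57.1 against 32.1 CPM in layer 4). For 10 of these 15 genes layer 4 held the next highest mean among the 3 classes. Some were abundant outside excitatory neurons, with Galntl6 at 4689 and Utrn at 267 CPM in inhibitory nuclei, and Sulf2 at 233 and Prrg1 at 115 CPM in oligodendrocyte nuclei. Against all other excitatory nuclei the 15 log2 differences were smaller, from 1.53 for Galntl6 to 2.97 for Ptprm, and that of Npsr1 was 1.56 and that of Adgrg6 was 1.91.

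The 10 genes lowest in members by the same rule included receptors of axon growth. Robo3, a guidance receptor of the Roundabout family, was at 3.73, 3.76, 4.80 and 3.53 CPM in members, with means of 26.0, 25.8 and 27.9 CPM in layers 2/3, 4 and 6 (log2 difference −2.70 ± 0.33 SE, adjusted p = 2.84e-06). Ntrk3, the receptor of neurotrophin-3, was at 162, 194, 151 and 173 CPM against means of 716, 288 and 550 CPM, and every sum of the other classes was above every member library (−1.48 ± 0.0966). Kctd1, a transcriptional repressor with a BTB domain, was at 42.4, 39.5, 50.02 and 52.4 CPM against 198, 180 and 141 CPM (−1.85 ± 0.0851). The non-coding 4933424G05Rik lies inside Kctd1 on the opposite strand and had 45.4 CPM against 217, 198 and 153 CPM.

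Slc4a4, a sodium bicarbonate cotransporter that also stands on the astrocyte list, was at 18.3 CPM in members and 72.2 to 123 CPM in the classes (−2.21). Dpy19l3, a mannosyltransferase gene, was at 11.4 against 23.6 to 78.5 CPM (−2.03), and Abi3bp, a matrix protein gene, at 20.4 against 50.8 to 69.0 CPM (−1.51). Tmem196 (−1.45) and the non-coding 4930509J09Rik (−1.69) and Gm12296 (−1.45) completed the 10. Gm12296 overlaps Shisa6, described below, on the opposite strand, so this pair and that of Kctd1 and 4933424G05Rik are uncertain as separate genes in the same way as the Ptprm pair. All 25 genes kept their direction and their side of the threshold under each of the 12 other settings tried. They had been picked from these data as the largest differences, so this says little about the other genes called. With a looser gate Robo3 moved to −1.70, 4930509J09Rik to −1.05 and Gm12296 to −0.59.

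**Figure D2:**
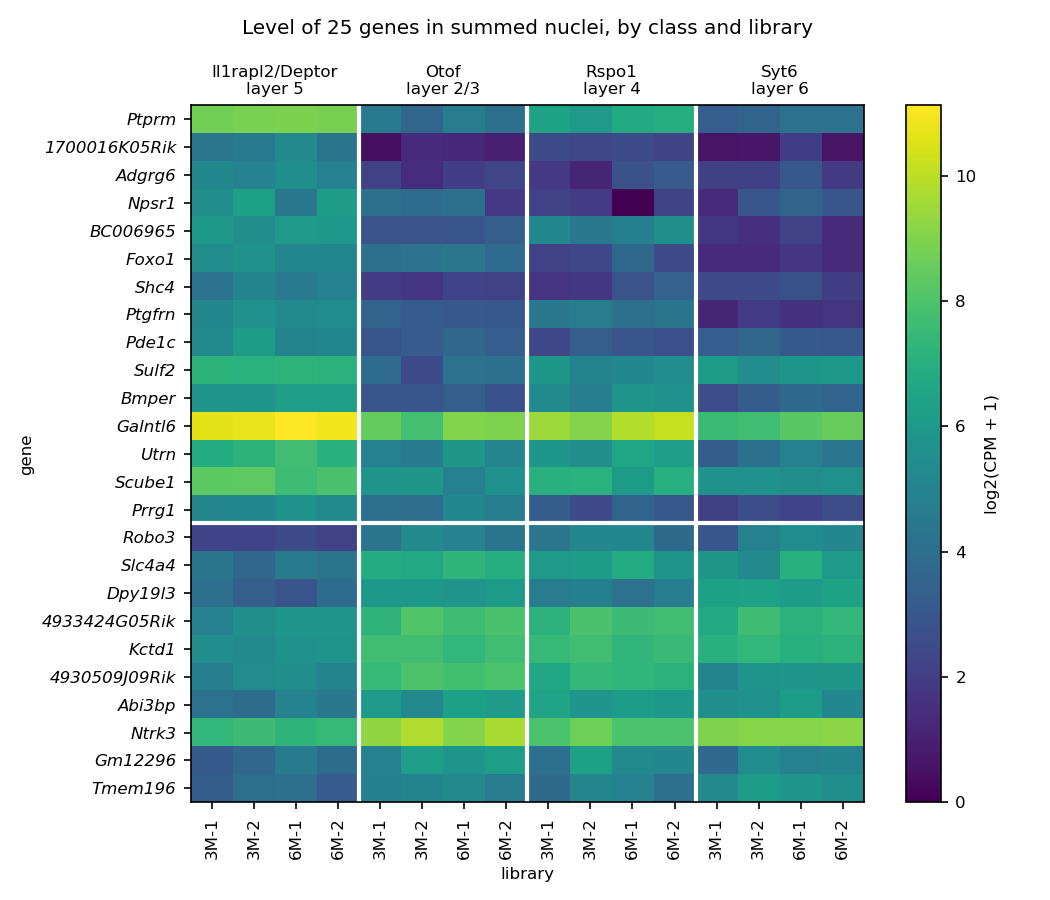
Level of the 15 genes highest and the 10 genes lowest in members by the rule of size (rows, divided by the white line), as log2(CPM + 1) in the sums of each class and library (columns). Members (first 4 columns) were above all other columns for Ptprm, at 432 to 495 CPM, and below them for Ntrk3, at 151 to 194 CPM.

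Markers of other cell types were also measured in the sums, and here too the share of all genes was 10.7% higher and 7.66% lower. Of 8 oligodendrocyte markers 1 was higher in members than in the mean of the classes, Mbp (130 CPM in members, 96.3 CPM in layer 2/3 and 108 CPM in layer 4), and 1 was lower, St18, and the median log2 difference of −0.20 became 0.47 with called doublets left out. Of 7 microglial markers 0 passed in either direction, and of 6 inhibitory markers 2 were lower, Adarb2 and Erbb4. Without called doublets 5 oligodendrocyte markers were tested, of which 1 was higher and 0 lower, and 1 of 5 inhibitory markers was lower. Of 4 tested astrocyte markers 2 were higher, Slc1a2 (460 CPM in members, 153 to 621 CPM in the classes) and Aldh1l1, and 2 lower, Slc1a3 and Slc4a4, with a median log2 difference of −0.80. Of 3 precursor markers 1 was lower, Lhfpl3, which was lower than in each class at 82.8 against 140 to 174 CPM, and the median was −0.87. Of 4 striatal markers 1 was higher and 1 lower, and the endothelial and cerebellar granule cell markers were too low to test. Their part in the differences between layers was not tested.

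The partners of the genes in the gate were then counted. Deptor acts on mTOR complexes 1 and 2, and of 27 tested genes of these complexes, their regulators and targets, 2 were higher and 1 was lower, beside 10.7% and 7.66% of all genes tested, with a median log2 difference of 0.04. In the lists that follow, counts of higher and lower genes are to be read beside these same percentages. Rptor, a core subunit gene, did not pass, at 138 CPM in members against 125 to 153 CPM (0.04 ± 0.052 SE, adjusted p = 0.70). Sgk1, a kinase activated by mTOR complex 2, was lower than in each class at 61.5, 52.6, 64.4 and 66.5 CPM against means of 88.8, 100.5 and 166 CPM (−0.87 ± 0.0806, adjusted p = 7.3e-08). Depdc5 (0.21), a brake on mTOR complex 1, was higher than the mean of the classes and not than each of them.

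Among 24 synaptic organizers, which include the family and partners of Il1rapl2, 8 were higher and 6 lower than the mean of the classes, and the median log2 difference was 0.01, a value whose sign turned when called doublets were left out (−0.01). The closest relative, Il1rapl1 (chrX:86740870-88115645, minus strand), was lower than in each class, at 1555, 1491, 1699 and 1564 CPM against means of 3283, 2807 and 2270 CPM (−0.78 ± 0.0523 SE, adjusted p = 4.95e-10). Nrxn3, a presynaptic neurexin, was also lower than in each class, at 2348 CPM against 3661 to 6235 CPM (−0.99 ± 0.0458). Ptprd, a phosphatase that binds Il1rapl1, was higher than the mean of the classes (0.45 ± 0.044), with 13900 CPM in members and 13610 CPM in layer 4.

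Of 24 tested genes of heparan sulfate, the pathway of Hs3st2, 9 were higher, 0 were lower and 15 passed in neither direction, beside 10.7% higher and 7.66% lower of all genes, with a median log2 difference of 0.16. Besides Sulf2, Ndst3, an enzyme that starts sulfation of the chain, was higher than in each class at 196, 310, 237 and 215 CPM against means of 139, 91.8 and 118 CPM (1.08 ± 0.114 SE, adjusted p = 3.83e-07). The core protein gene Gpc6 was at 748 CPM in members and 742 CPM in layer 2/3, with 280 and 77.9 CPM in layers 4 and 6 (1.59), and the 6-O-sulfotransferase Hs6st3 at 2060 CPM in members and 2937 CPM in layer 4 (1.24). Hs3st4, which adds the same sulfate as Hs3st2, was at 727 CPM against 2477 CPM in layer 6 and did not differ from the mean of the classes by the test (0.12, adjusted p = 0.557).

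Ion channels and receptors differed gene by gene. Of 26 potassium channel genes 12 were higher and 8 lower, beside 10.7% and 7.66% of all genes, with a median log2 difference of 0.06. Kcnq3, a subunit of the M-current that damps repeated firing, was at 1336, 1467, 1206 and 1423 CPM in members, higher than in each class, with 1090 CPM in layer 4 and 586 and 604 CPM in layers 2/3 and 6 (0.93 ± 0.0574 SE). Kcnt2, a sodium-activated potassium channel gene, was also higher than in each class (1.00 ± 0.068), and Kcnq5 (0.85) and Kcnh5 (1.07) higher than their mean. Of 21 sodium, calcium and HCN channel genes 9 were higher and 4 lower. Cacna2d3 (0.79), Cacna1g, a T-type calcium channel gene (0.73), Cacna1d (0.40) and Cacna1a (0.31) were higher.

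Of 18 ionotropic glutamate receptor and auxiliary genes 4 were higher and 6 lower. Cnih3, an auxiliary subunit of AMPA receptors, was higher than in each class, at 126, 83.6, 104 and 103 CPM against means of 69.9, 85.2 and 19.1 CPM (1.13 ± 0.0675 SE). Shisa6, another AMPA receptor partner, which overlaps Gm12296 on the opposite strand, was lower than in each, at 24.1, 25.4, 32.5 and 38.8 CPM against 98.4, 104 and 59.4 CPM (−1.43 ± 0.125). The kainate receptor Grik3 was at 250 CPM in members, 440 CPM in layer 6 and 45.2 and 39.1 CPM in layers 2/3 and 4. Of 12 GABA-A receptor genes 2 were higher, among them Gabrg3 (0.42), and 4 lower, among them Gabrb1 (−0.41), which was lower than in each class.

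Cadherins and guidance molecules held many calls. Of 46 genes 22 were higher and 13 lower than the mean of the classes, beside 10.7% and 7.66% of all genes tested, and the median log2 difference was 0.32. Cdh10, a type II cadherin gene, was higher than in each class at 513, 651, 730 and 541 CPM against means of 285, 447 and 92.0 CPM (1.44 ± 0.0857 SE), as were the contactin Cntn5 (0.93 ± 0.0715) and the Slit receptor Robo2 (0.63 ± 0.0505). Efna5, an ephrin, was at 632 CPM in members and 681 CPM in layer 4 (0.88). The netrin receptor Dcc was at 660 CPM and did not pass (0.18, adjusted p = 0.351).

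**Figure D3:**
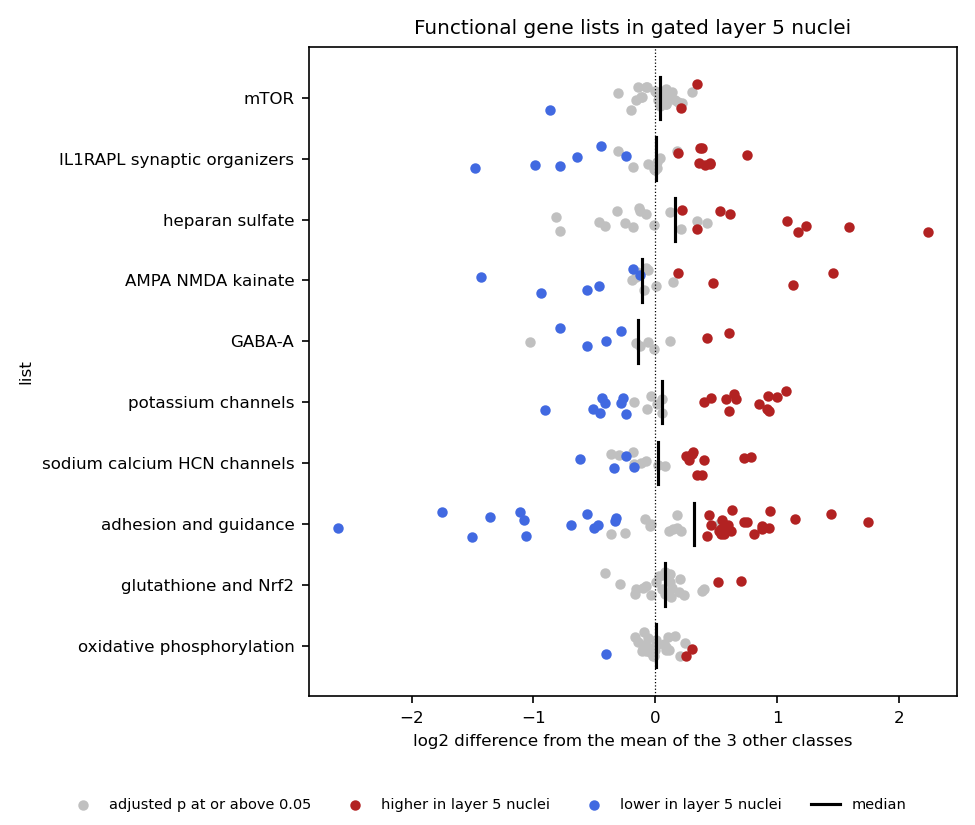
Log2 difference between members and the mean of the layer 2/3, 4 and 6 classes (horizontal axis) for the tested genes of 10 functional lists (vertical axis), with 1 point per gene, coloured where the adjusted p of edgeR was below 0.05. Medians (bars) lay between −0.14 (GABA-A receptors) and 0.32 (adhesion and guidance), and the heparan sulfate and glutathione lists had no gene called lower.

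Stress and metabolic genes were counted in the same way. Of 24 tested genes of glutathione synthesis and the Nrf2 response, the pathway that the deletion targets, 2 were higher and 0 lower, beside 10.7% and 7.66% of all genes, with a median log2 difference of 0.08. They were Abcc1, a pump that exports glutathione conjugates, at 43.1, 41.8, 44.5 and 40.7 CPM against means of 30.5, 25.7 and 35.5 CPM (0.52 ± 0.0757 SE, adjusted p = 2.99e-05), and Mgst3 (0.71 ± 0.151). Slc7a11, Chac1, Hmox1 and Nqo1 were too low to test. Of 15 genes of the integrated stress response 2 were higher, the kinase Eif2ak3 (0.41) and the transporter Slc7a3 (0.66), and 0 lower, and Atf3 and Ddit3 were too low to test.

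Of 17 p53 and DNA damage genes 2 were higher and 3 lower, with Plk2 (−0.82) lower than in each class, and of 20 activity genes 0 were higher and 4 lower (Bdnf, Btg2, Scg2 and Junb). With DESeq2, 2 activity genes were lower. Of 10 axon injury genes 2 were higher (Stmn2 and Klf6) and 2 lower (Sox11 and Gap43). Oxidative phosphorylation had 2 higher (Uqcrc1 and Cox5a) and 1 lower (Ndufb9) of 28, and chaperones 1 higher (Hspa4l) of 16. The general excitatory markers had 3 of 8 higher, among them Neurod6 and Slc17a6, and 2 lower (Nrgn and Neurod2).

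The share of members among excitatory nuclei was then compared between the ages. It was 6.12% in 3M-1 (95% Wilson interval 5.34 to 6.997%), 3.69% in 3M-2 (3.18 to 4.28%), 6.41% in 6M-1 (5.62 to 7.30%) and 8.22% in 6M-2 (7.32 to 9.22%), where the intervals cover counting error only. Both 6-month mice lay above both 3-month mice, but 3M-1 and 6M-1 were within each other's intervals. The means differed by 2.41 points, with an exact two-sided permutation p of 0.333, which is the smallest that 2 mice against 2 allow. The difference rested on single mice, at 3.63 points when 3M-1 was left out, 1.20 points when 3M-2 was and 1.51 points when 6M-2 was. Layer 2/3 nuclei went the other way, at 18.8%, 14.99%, 13.2% and 9.12% of excitatory nuclei in the same order (p = 0.333, exact permutation test). Layer 6 nuclei went the same way as members, at 9.59%, 7.62%, 10.15% and 10.3%, with means that differed by 1.63 points (p = 0.333, exact permutation test). Layer 4 nuclei were at 6.52%, 5.95%, 6.05% and 5.27%, where the ages overlapped (p = 0.667, exact permutation test).

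Because the gate needs UMIs, nuclei were also thinned to 5000 UMIs each and the whole gate was applied again. Shallower nuclei were left out, among them 297, 972, 278 and 387 excitatory ones. After thinning 2386, 3080, 2384 and 2333 nuclei still counted as excitatory. Of these, 62, 58, 72 and 85 passed the gate, and 56, 55, 68 and 79 of them had been members before. The share became 2.60%, 1.88%, 3.02% and 3.64%. Every share was lower after thinning and the order of the mice was kept. The means were 2.24% at 3 and 3.33% at 6 months, against 4.90% and 7.32% before, and differed by 1.09 points. Taken over all nuclei, the share was 2.90%, 1.92%, 2.60% and 3.87%, and here the ages overlapped (difference 0.826 points, exact permutation p = 0.667). Excitatory nuclei themselves were 47.4%, 52.1%, 40.6% and 47.1% of all nuclei. Nuclei had been sorted before capture, which can set such shares, and its part was not tested.

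**Figure D4:**
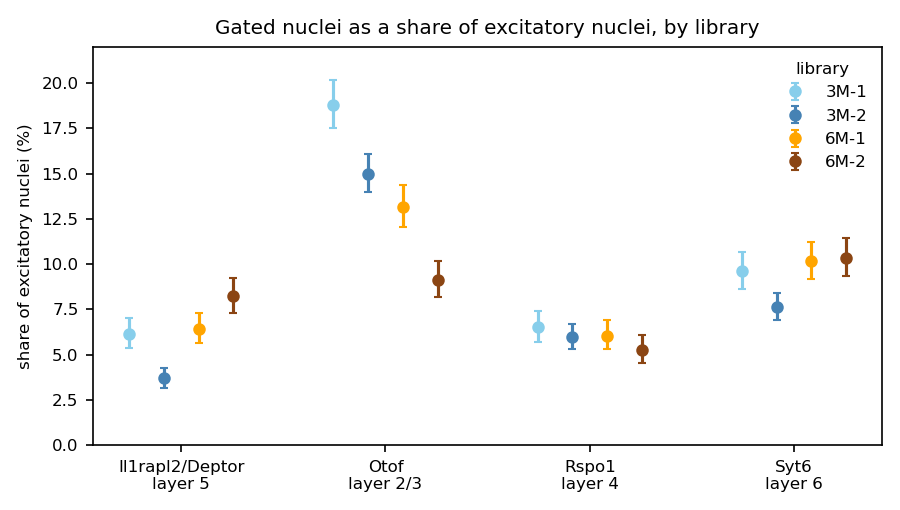
Nuclei of the 4 classes as a percentage of the excitatory nuclei of each library (vertical axis), with 95% Wilson intervals as bars and 1 point per library. Members (first group) were at 3.69% and 6.12% in the 3-month libraries and at 6.41% and 8.22% in the 6-month libraries, and the layer 2/3 class (second group) lay between 9.12% and 18.8%, with both 6-month libraries below both 3-month libraries.

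Expression in members was compared between 6 and 3 months over the 4 sums, 2 mice against 2. Of 12663 genes tested, edgeR called 0, while 697 (5.5%) had an unadjusted p below 0.05 and DESeq2 called 1 gene, Gm48530. Without 3M-2 edgeR called 140 genes higher and 49 lower at 6 months. The median log2 change over all genes was −0.01. With the labelled batch as a replicate block, which leaves 1 residual degree of freedom, 51 genes were higher (0.403%) and 12 lower (0.0948%) at 6 months. Leaving out called doublets as well, which was chosen after these values were known, gave 2 genes higher, Gm48530 and Gm21860, and 0 lower. The cause of this loss was not tested.

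The 5 genes with the smallest p in each direction are named, and none passed the test without the block. Gm48530 was at 3.395, 3.29, 33.9 and 18.5 CPM (log2 change 2.92 ± 0.421 SE, adjusted p = 0.435, with the block 3.07e-08). Gm21860 had no UMI in either 3-month library, which allows up to 3 UMIs in each, and 13.4 and 5.70 CPM at 6 months (adjusted p = 0.481, with the block 1.14e-06). Gm15584, which lies inside Brinp3 on the opposite strand, was at 33.6, 30.1, 68.2 and 78.7 CPM (adjusted p = 0.435, with the block 0.00156). Inpp5d (4.07, 2.82, 13.4 and 23.4 CPM, adjusted p = 0.481), a phosphatase gene listed here as a microglial marker, and C030029H02Rik (0.679, 1.41, 9.94 and 7.60 CPM, adjusted p = 0.527) completed this group.

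In the other direction Zrsr1, a splicing factor gene that lies inside Commd1 on the opposite strand, was at 24.1, 25.8, 6.51 and 8.42 CPM (log2 change −1.74 ± 0.285 SE, adjusted p = 0.435, with the block 0.00126). Gm47283 was at 509, 388, 257 and 255 CPM (−0.83 ± 0.168, adjusted p = 0.527). Vegfa, the vascular growth factor that hypoxia induces, was at 23.1, 28.2, 11.7 and 9.23 CPM (−1.31, adjusted p = 0.527, with the block 0.0315), and Nos1, the neuronal nitric oxide synthase, at 18.3, 24.4, 6.51 and 9.50 CPM (−1.40, adjusted p = 0.550, with the block 0.0272). Gm15446 was at 23.1, 27.7, 11.3 and 11.7 CPM and did not pass with the block either (adjusted p = 0.593 and 0.0772). Gm15584 and Zrsr1 are uncertain as genes separate from Brinp3 and Commd1, since counting by strand is not given. All 10 had the same sign of fitted change in layers 2/3, 4 and 6, which came from the same mice and libraries. The share of all genes with such signs was not counted.

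Summed markers of oligodendrocytes, microglia, inhibitory neurons, precursors, endothelial and granule cells stood higher in members of both 6-month mice than of both 3-month mice. Those of astrocytes and striatal neurons did not. Granule cell markers were near the floor, at 0.679, 0.4697, 4.454 and 1.086 CPM, and striatal markers summed to 19.35, 23.96, 17.47 and 21.45 CPM. Astrocyte markers, led by Slc1a2, had the largest of these sums, at 429, 501, 566 and 481 CPM, where the ages overlapped, and 432, 502, 567 and 471 CPM without called doublets. The 8 oligodendrocyte markers, of which Mbp was the most abundant, summed to 162, 167, 285 and 231 CPM, and all 7 that were tested were higher in both 6-month mice, beside 18.7% of all genes. Without called doublets the sums were 141, 137, 154 and 165 CPM, against 16000 CPM in oligodendrocyte nuclei. Microglial markers, led by P2ry12, summed to 72.3, 95.8, 158 and 162 CPM with 6 of 7 genes higher in both 6-month mice, and to 73.5, 85.1, 127 and 111 CPM without called doublets. Inhibitory markers, led by Nxph1, summed to 59.1, 62.0, 145 and 118 CPM and to 56.1, 60.5, 139 and 81.1 CPM, and precursor markers, led by Lhfpl3, to 76.1, 61.5, 121 and 111 CPM and to 76.6, 62.5, 116 and 93.7 CPM. Endothelial markers summed to 3.395, 2.82, 3.77 and 4.07 CPM, also higher in both 6-month mice though on few UMIs in each library, and to 3.47, 2.95, 2.36 and 3.01 CPM without called doublets, where the order did not hold. Cldn5 was at 0 in every library. Of the genes called with the block, Mog and St18 are on the oligodendrocyte list, Inpp5d on the microglial and Nxph1 and Adarb2 on the inhibitory list, and the part of such nuclei or of free RNA in the age results was not tested.

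**Figure D5:**
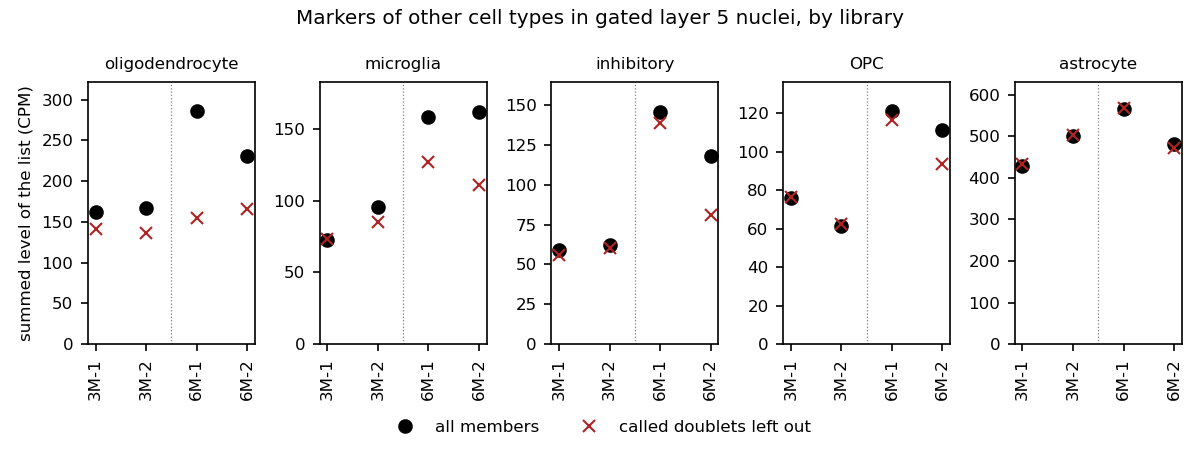
Summed level in CPM (vertical axis, starting at 0 in each panel) of the marker genes of 5 other cell types in members of each library (horizontal axis), for all members (dots) and with called doublets left out (crosses). Oligodendrocyte markers were at 231 and 285 CPM in the 6-month libraries with all members and at 154 and 165 CPM without called doublets.

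The lists of neuronal function were counted for age as well, where all genes tested gave 0 calls without the block and 0.403% higher and 0.0948% lower with it. Of 24 synaptic organizers, 22 glutathione and Nrf2 genes, 12 stress response genes, 15 p53 genes and 28 oxidative phosphorylation genes tested, 0 passed with or without the block. Gpc5, a heparan sulfate core protein, was lower with the block (411, 103, 62.0 and 146 CPM, adjusted p = 0.000308), although the ages overlapped, and Slit2 was higher (139, 131, 392 and 155 CPM, adjusted p = 0.00509), a difference carried mostly by 6M-1. Prr5l, from the mTOR list, was at 4.41, 4.23, 27.4 and 10.9 CPM in members and at 1950 CPM in oligodendrocyte nuclei, and Kcnip1 was at 4.41, 1.88, 6.17 and 21.2 CPM in members and 471 CPM in inhibitory nuclei.

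Whether age acted differently on members than on the other layers was tested as an interaction over the 16 sums. None of 13922 genes passed, 727 (5.22%) had an unadjusted p below 0.05, and DESeq2 called 0. The smallest p-values belonged to the non-coding Sox2ot, whose age change was higher in members by 1.53 ± 0.292 (log2, SE, adjusted p = 0.407), and to Etv1, whose age change was lower by 0.99 (−0.99 ± 0.193, adjusted p = 0.407). Etv1 was at 124, 178, 172 and 115 CPM in members, where the ages overlapped, and at higher levels in both 6-month than in both 3-month libraries of layers 2/3, 4 and 6. Of the 51 genes higher with the block, 37 were under 50 CPM at both ages. By the sign of the fitted change, 43 of the 51 were also higher at 6 months in each of the 3 other layers. The share of all genes tested with such signs was not counted. These layers come from the same 4 mice and libraries, so the shared signs are no separate evidence of a change with age.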

How the data were processed

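Nuclei of 4 cortices of Gclc-deleted mice had been sorted and sequenced with 3′ droplet chemistry. The authors deposited unnormalized UMI counts of called nuclei, made with Cell Ranger 7.0.0 per the file headers. The build mm10 and Seurat are named in the submitters' processing notes. Whether introns and strand were counted is not given in the sources used here. The deposited libraries held 64857084, 64299223, 71255054 and 63429297 UMIs, in the library order of the report. Of 32285 gene identifiers, coordinates were taken from GENCODE M21 (GRCm38) where the identifier matched.

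The study's filter (7000 genes, 1% mitochondrial UMIs) was applied, nuclei were gated as stated, and UMIs were summed per mouse and class. The nuclei were not clustered, and gene levels on either side of the gate are given. The sums were fitted with edgeR 4.0.16 in R 4.3.3 (TMM, filterByExpr, quasi-likelihood test, Benjamini-Hochberg over all genes tested, threshold 0.05), with mouse as a block between classes and no block between ages. The SE is the absolute log2 change divided by the square root of F. DESeq2 1.42.0, RLE factors, no filter, other gates and left-out mice were alternatives. Scrublet in scanpy 1.11.5 called doublets at an expected 0.8% per 1000 nuclei. Shares were tested with exact permutation tests in SciPy 1.17.1. The scripts were tested on simulated counts.

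Pairing comes from the labels, where batch 1 holds replicate 1 of each age and batch 2 replicate 2. Replicate differences at 3 and at 6 months had a Pearson correlation of −0.0929 over 12663 genes.

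For genes of the gates, Hs3st2 and Ccdc80 no test is given and none was named by the rules that follow, but those that passed the filter remain in the fits, the totals of genes tested and the counts of calls. Between classes, the text names the 15 genes higher and 10 lower with the largest log2 difference among those that passed against each class in 4 of 4 mice and had at least 20 CPM in members (higher) or in each other class (lower). Between ages it names the 5 higher and 5 lower with the smallest p, since under 5 passed. Of each list it names up to 4 genes that passed, by adjusted p, up to 3 others by level, and all layer markers where useful. Genes named because they also passed against each class, or were called with the block, were chosen after their values were seen. The members and lists were chosen with earlier results of these data known. Some genes are not reported here.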

Additional observations from a re-analysis of the deposited data

Results flagged for a closer look

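The share of members among excitatory nuclei was 2.413 points higher at 6 than at 3 months, and that of layer 2/3 nuclei changed by −5.766 points. What drew attention was that both 6-month mice lay above both 3-month mice in the first share and below them in the second. The difference between the classes was not tested apart from this observation. There were 0.325, 0.246, 0.487 and 0.901 members per layer 2/3 nucleus in 3M-1, then 3M-2, 6M-1 and finally 6M-2. Members per layer 6 nucleus were 0.638, 0.484, 0.632 and 0.796, where the ages overlapped.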

How the results depend on the processing

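Calls between layers were partly kept under other settings. Of the 2552 calls against the mean of the classes, 69.87% to 77.23% were made again with 1 mouse left out. With no mouse block 49.45% were. The 25 named genes kept direction and side of the threshold in all 300 repeats, but they had been picked from these data as the largest differences. Counts against the mean of the classes (1485 higher, 1067 lower) became 791 and 471 with no mouse block, where all 1262 calls were among the 2552 called with it, and 1323 higher and 1607 lower against all other excitatory nuclei, where the 15 higher genes kept their calls at smaller log2 differences (Npsr1 1.56 from 3.16, Adgrg6 1.91 from 3.23, BC006965 1.78 from 2.86 and Ptprm 2.97 from 4.05) and Gm12296 went to −2.13 from −1.45. With the looser gate Robo3 went to −1.70 from −2.70, 4930509J09Rik to −1.05 from −1.69 and Gm12296 to −0.59. Against each class they were 111 higher and 46 lower with no mouse block. Leaving out 1 mouse gave 1121 to 1278 higher and 764 to 865 lower against the mean, and 171 to 214 and 82 to 113 against each class. With DESeq2, 2 of the 20 activity genes were lower than the mean of the classes, in place of 4. With called doublets left out, higher and lower counts of the lists moved by at most 1, and medians that moved furthest among the functional lists were those of axon injury (0.01 to 0.20), potassium channels (0.06 to 0.20) and adhesion (0.32 to 0.43). Signs turned for inhibitory markers (−0.32 to 0.04), oligodendrocyte markers (−0.20 to 0.47), chaperones (0.01 to −0.03), oxidative phosphorylation (0.00 to −0.02) and sodium, calcium and HCN channels (0.02 to −0.01), beside the synaptic organizers.

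Age calls were unstable. The 0 genes higher at 6 months became 1 with DESeq2, 108 with no filter, 51 with the replicate block and 2 with the replicate block and doublets left out (added after seeing the data), and 0 to 140 with 1 mouse left out, of which 140 came without 3M-2. The 0 lower became 27 with no filter, 12 with the block and 0 to 49 with 1 mouse left out, with 49 again without 3M-2. For the interaction, no filter gave 23 higher and 34 lower, the replicate block 1 lower, doublets left out 1 lower, and 1 mouse left out 0 to 5 higher and 0 to 7 lower, with 5 and 3 without 6M-1 and 2 and 7 without 6M-2. The cause was not tested. The block was fitted for age and the interaction only. The layer comparison had the mouse as its block, and the shares had none.

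The difference in share was 0.8263 points over all nuclei, and 1.199 to 3.627 points of excitatory nuclei with 1 mouse left out, lowest without 3M-2. It was 2.22 with called doublets left out, 1.405 with a stricter and 3.125 with a looser gate. With 1 mouse left out, the lone mouse of its age is assumed to vary like the others. With 168 to 265 members a library, genes of a few CPM rest on few UMIs.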
